A study of Mus musculus with 5 samples.

Results

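Type I interferon-stimulated genes are described here in mouse macrophages that shared a culture with breast cancer cells. The list holds 50 genes chosen by name, of 17058 genes with a transcript in the deposited tables. All 50 were matched to an Entrez gene, 49 had a transcript listed in at least 1 library, and 47 had enough counts to be tested among 12576 genes. The macrophages were bone marrow–derived macrophages (BMDMs), grown with M-CSF from the marrow of BALB/c mice, and the labels state their strain but not which animals gave which library. For 48 hours they were cocultured across a porous membrane with 4T1 cells, a mouse mammary carcinoma line of BALB/c origin. In 2 libraries the cancer cells were WT, and in 3 libraries they were Adam17-/- (ADAM17 knock-out by CRISPR/Cas9). Adam17 was intact in the sequenced macrophages of both groups. All 3 Adam17-/- libraries carry a common knock-out designation in the labels, so loss of Adam17 and other features of that line cannot be told apart. No macrophages without cancer cells, and none treated with interferon, were among the samples, so a baseline and a full interferon response were not measured. Nothing in the labels ties the replicates to separate animals, and p-values then measure only the spread between these samples.

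The libraries held 14658694 to 20788373 counts. Levels of a gene across libraries are given as CPM, counts scaled to a common library total after edgeR's TMM normalization, and 3 counts correspond to 0.157 to 0.197 CPM. Levels of different genes are compared only as FPKM, which also divides by transcript length. A gene is called higher or lower in Adam17-/- coculture when its Benjamini-Hochberg adjusted p from edgeR's quasi-likelihood test, adjusted over all genes tested, is 0.05 or less. For a single gene, exact permutation of 2 and 3 libraries gives no p below 0.1.

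Type I interferons bind a receptor of the subunits IFNAR1 and IFNAR2, whose kinases JAK1 and TYK2 activate transcription factors of the STAT family. STAT2 and IRF9 are subunits of the factor ISGF3, which binds the interferon-stimulated response element (ISRE) in promoters, while the gamma-activated site (GAS) serves most of the response to interferon-γ. The induced genes block virus replication, sense nucleic acids, attack vacuoles of microbes or tune the pathway itself, and macrophages keep many of them at a low constant level.

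Interferon-stimulated genes differed little in size between the cocultures, and those that were called were mostly higher with Adam17-/- 4T1 cells. Guanylate-binding proteins and a related GTPase differed most, with Gbp5, Gbp4 and Iigp1 all below a doubling. Of the 47 genes tested, 13 were called higher, or 27.7%, where 14.9% of all genes tested were called higher. Only Slfn5 was called lower, or 2.13%, against 16.8% of all genes. All 47 passed the count filter on the WT libraries alone. In 19 of the 47, every Adam17-/- library lay above both WT libraries, which held for 28.4% of all genes. In 8, every Adam17-/- library lay below both, which held for 29.7% of all genes, and in 20 the groups overlapped. None passed a stricter rule that also asked for a log2 fold change of at least 1 in either direction, a rule that 3.36% of all genes passed as higher and 0.867% as lower. The fitted log2 fold changes ran from -0.32 for Bst2 to 0.94 for Gbp5, with a median of 0.13 (all genes, 0.01), and 31 of 47 were positive. For 32 of the 47 genes, the 95% confidence interval lay within a 1.5-fold change in either direction. The number of higher genes depended on the Adam17-/- libraries: it was 4, 4 and 6 with replicate 1, 2 and 3 left out, or 8.51%, 8.51% and 12.8% of the 47, while 8.73%, 9.96% and 9.74% of all genes were then called higher. Without replicate 1 or 2, the share of the list was thus below that of all genes. Scaling by library size only gave 20 higher and 0 lower, and moved the shares of all genes to 24.0% higher and 8.56% lower.

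**Figure D1:**
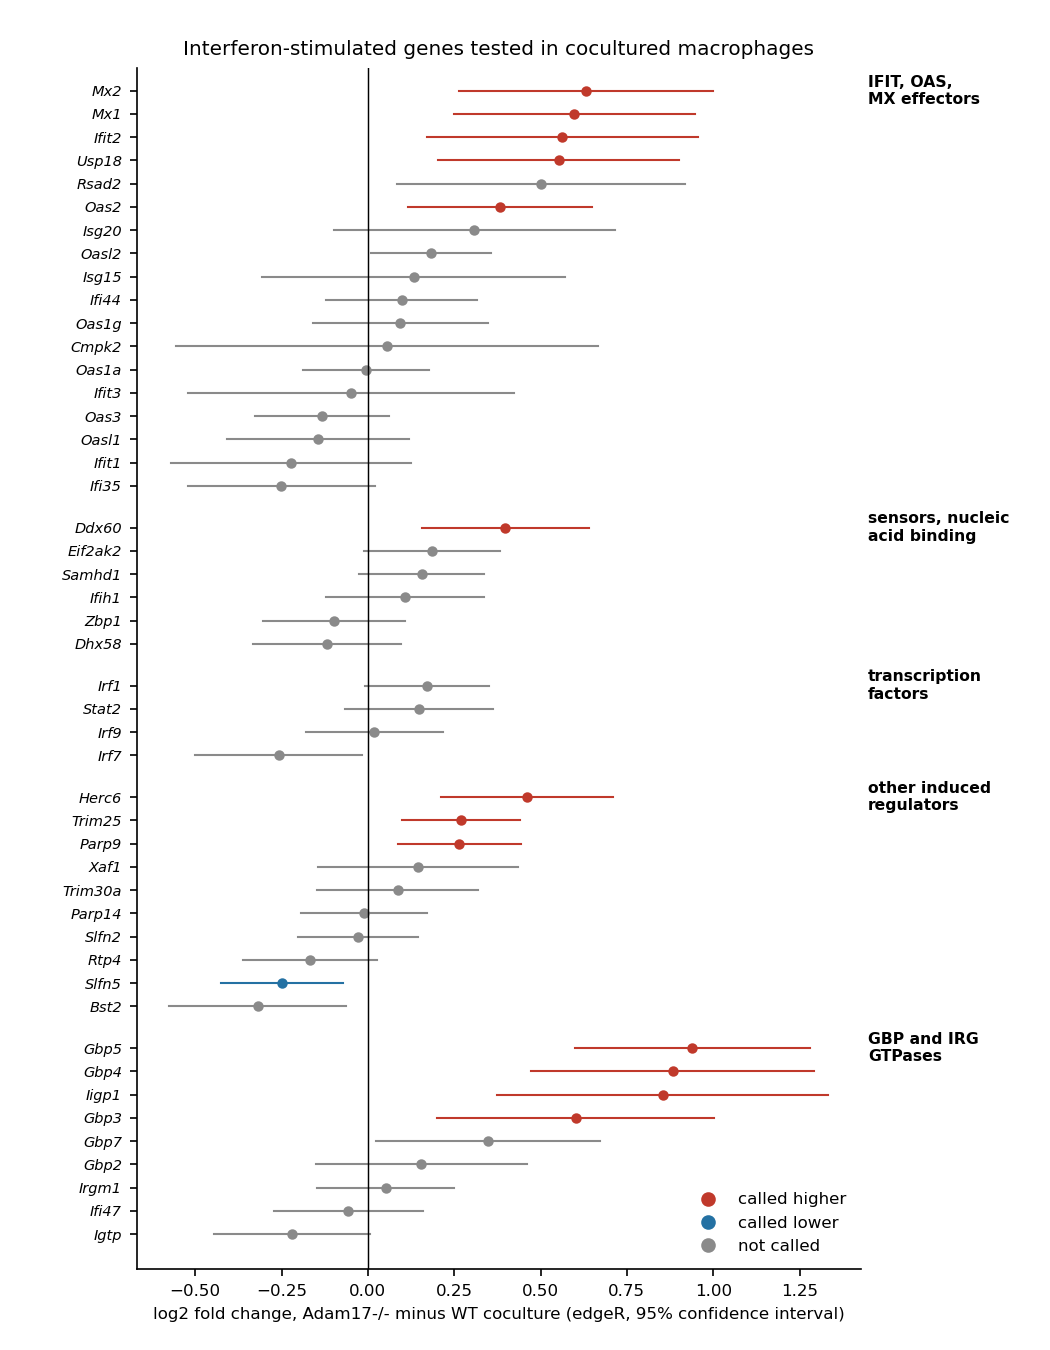
Fitted log2 fold change (Adam17-/- minus WT coculture) of each of the 47 genes tested, in 5 groups by role. Points are edgeR estimates and lines are 95% confidence intervals; red marks the 13 genes called higher, blue Slfn5, the gene called lower, and gray the genes not called.

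The BMDMs expressed most of the list without added interferon, at levels that spanned from 106.9 FPKM for Slfn2 to 0.114 FPKM for Ifit3b (means of 5 libraries). Among the most abundant were Samhd1 (96.8 FPKM), a nucleotide hydrolase that starves viruses of DNA building blocks, and Oas2 (90.2 FPKM), an enzyme that makes the signal for RNA decay. The factors Irf7 (63.7 FPKM) and Irf1 (52.3 FPKM) and the virus tether Bst2 (48.5 FPKM) followed. Some members known for a strong interferon response sat near the bottom, with Ifit1 at 2.14 FPKM, Rsad2 at 1.36 FPKM and Iigp1 at 1.28 FPKM. Others stood higher, such as Isg15 at 5.57 FPKM and Oasl2 at 43.0 FPKM. Irf1 and Bst2 were neighbors in this order, and their libraries overlapped, so their order is not larger than the spread. FPKM are not TMM-scaled, and in the fit of log2(FPKM + 0.1) all genes had a median log2 difference of 0.15 toward Adam17-/-, and the plot of levels carries that shift.

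**Figure D2:**
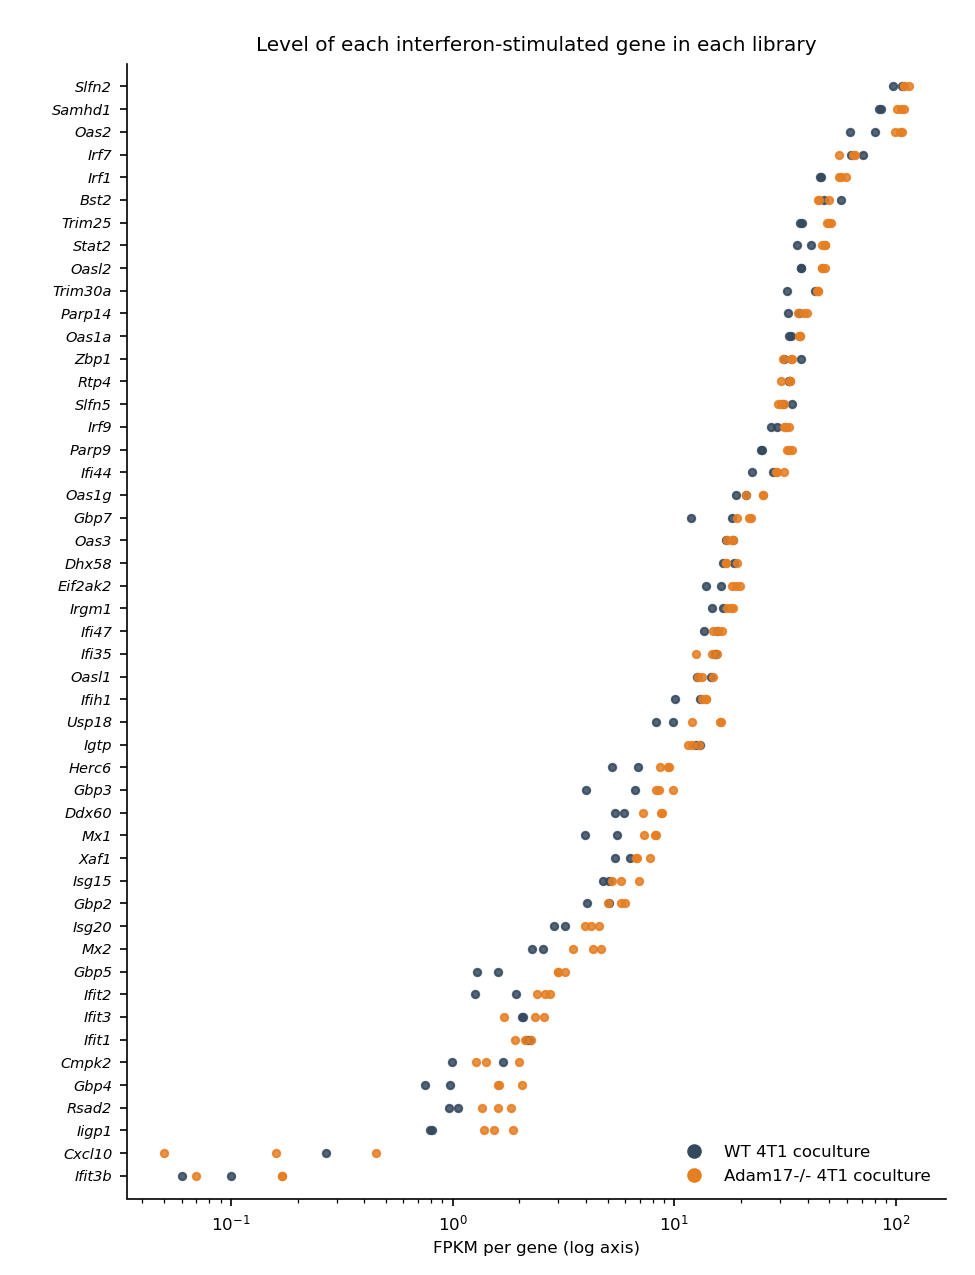
Level of the 49 listed genes in each library, as FPKM on a log axis, ordered by the mean. Each point is 1 library, dark for WT and orange for Adam17-/- coculture, and Cxcl10 in WT replicate 2 had 0 counts and has no point. Levels fall from Slfn2 at the top to Ifit3b at the bottom, and for Gbp5, Gbp4 and Iigp1 all orange points lie to the right of the dark points.

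The letters of the ISRE core are frequent in the promoters of these genes. In RefSeq promoter windows of GRCm38.p6, from 250 bases before to 50 after each start, the ISRE was searched as GAAANNGAAA on both strands and the GAS as TTCNNNGAA, which reads the same on both. The ISRE letters were in 22 of the 39 listed genes that had a window, or 56.4%. Counted by window, since a gene can have several, they were in 23 of 46 windows, or 50%, against 3.44% of 32851 windows of all genes. The GAS letters were in 11 of the 39 genes and in 11 of the 46 windows, or 23.9%, against 8.30% of all windows. The share with ISRE letters was 3 of 6 among the genes called higher and 16 of 29 among the genes not called. The windows of Dhx58, Gbp4, Iigp1, Mx1, Mx2, Oas2, Parp14, Parp9, Rtp4, Usp18 and Zbp1 were not analyzed here. The reference is the C57BL/6J genome and not BALB/c, and a match is only a match of letters.

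Guanylate-binding proteins (GBPs) and immunity-related GTPases (IRGs) are large enzymes that coat and break the vacuoles of intracellular microbes, and interferon-γ induces them as well as type I interferon. Of 9 listed, 4 were called higher, or 44.4%, and 0 lower, against 14.9% and 16.8% of all genes, and their log2 fold changes had a median of 0.35. That median moved with the WT library left out, to 0.097 without WT replicate 1, where the IFIT, OAS and MX genes described below had a median of 0.21, and to 0.64 without WT replicate 2. The promoter windows of the chromosome 3 GBPs are shown to let the letters of 1 gene cluster be read side by side. They were chosen with the calls known, so they say nothing on whether the letters go with a call. Each is a stretch of 30 bases upstream of the transcript start that RefSeq gives for the window, on the strand of the gene, with the motif in capitals. That start can lie inside the span printed for the gene, which covers all its transcripts, and the stretch of Gbp3 lies partly within that span.
Gbp5, ISRE, chr3:142496759-142496788, plus strand: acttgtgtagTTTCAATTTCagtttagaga
Gbp5, GAS, chr3:142496871-142496900, plus strand: ctggccgttatTTCTCAGAAccaagcacag
Gbp3, ISRE, chr3:142559992-142560021, plus strand: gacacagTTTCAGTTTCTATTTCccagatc
Gbp7, ISRE, chr3:142530273-142530302, plus strand: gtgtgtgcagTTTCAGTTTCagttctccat
Gbp2, ISRE, chr3:142620594-142620623, plus strand: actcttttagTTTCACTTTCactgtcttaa
The GAS letters had 2 matches each in the windows of Gbp5 and Gbp7 and none in those of Gbp3 and Gbp2, and 1 of the matches of Gbp5 is printed as the example. In Gbp3 the capitals hold 2 overlapping matches.

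Gbp5 (Entrez 229898, chromosome 3, 142496934 to 142522344), which also promotes inflammasome activity, was at 4.13 and 4.92 CPM in the WT libraries and at 9.03, 8.49 and 8.53 CPM in the Adam17-/- libraries. Every Adam17-/- library lay well above both WT libraries, and the log2 fold change was 0.94 (SE 0.152, adjusted p = 0.00227). Gbp4 (Entrez 17472, chromosome 5, 105115767 to 105139586) was at 3.61 and 4.49 CPM with WT cells and at 8.65, 6.91 and 6.83 CPM with Adam17-/- cells. Its groups were likewise apart, with a log2 fold change of 0.88 (SE 0.183, adjusted p = 0.00684). Its counts were not whole in any library, so part of its reads was divided with other genes and its level is uncertain. Iigp1 (Entrez 60440, chromosome 18, 60373616 to 60392634), an IRG that acts on the vacuoles of parasites and bacteria, was at 2.56 and 2.44 CPM against 4.32, 5.46 and 3.87 CPM. Here too the groups did not overlap, with a log2 fold change of 0.85 (SE 0.214, adjusted p = 0.0153). Gbp5, Gbp4 and Iigp1 stayed called in all 13 alternative analyses. Gbp3 (Entrez 55932, chromosome 3, 142560016 to 142573213) was at 10.99 and 17.5 CPM with WT cells and at 23.7, 20.1 and 20.9 CPM with Adam17-/- cells. The WT libraries differed from each other by more than WT replicate 2 differed from any Adam17-/- library, and the log2 fold change was 0.60 (SE 0.179, adjusted p = 0.0301). The call was lost without WT replicate 1 (log2 fold change 0.30, adjusted p = 0.0855) and without Adam17-/- replicate 1, 2 or 3 (adjusted p = 0.110, 0.0640 and 0.0725).

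The most abundant of the group, Gbp7 at 18.6 FPKM, was at 71.7 and 104.6 CPM in the WT libraries and at 117.3, 102.6 and 116.3 CPM in the Adam17-/- libraries. Its groups overlapped and it was not called (log2 fold change 0.35, SE 0.145, adjusted p = 0.0935), and its value moved with the WT library left out. Without WT replicate 2 its log2 fold change was 0.64, and without WT replicate 1 it was 0.097. Gbp7 was called higher with library size only (adjusted p = 0.0444), on log2(FPKM + 0.1) (0.0488) and with no filter on low counts (0.0463). Gbp2, Irgm1, Ifi47 and Igtp were not called, with log2 fold changes of 0.15, 0.05, -0.06 and -0.22. For Irgm1, a regulator of autophagy and of other IRGs, the 95% confidence interval of the log2 fold change was -0.15 to 0.25. Igtp lay below both WT libraries in every Adam17-/- library, and without WT replicate 2 its log2 fold change was -0.28.

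GBP and IRG genes lie in clusters, and those outside the list were read from the same fit. The grouping by chromosome was made after the values were seen and carries no test, and its counts, of 3 to 6 genes each, stand beside 14.9% of all genes called higher and 16.8% lower. On chromosome 5, 6 of 6 GBP genes were called higher, between 105012513 and 105346476, in the order Gbp8 (log2 fold change 1.53), Gbp9 (0.79), Gbp4 (0.88), Gbp10 (1.21), Gbp6 (1.00) and Gbp11 (2.19). All 6 had counts that were not whole in at least 1 library, so part of their reads was divided with other genes and the 6 values are not independent. Gbp11 was at the floor of 3 counts in WT replicate 1 (0.157 CPM) and passed the count filter only through the Adam17-/- libraries, so it does not count toward the 6 as support and its size is uncertain. Its log2 fold change ran from 0.71 to 3.91 over the alternatives, and its call was lost without Adam17-/- replicate 1 (adjusted p = 0.0514). On chromosome 3, 2 of 5 were called higher, Gbp5 and Gbp3. On chromosome 18, 3 of 3 IRG genes were called higher, namely Iigp1, Gm4951 (0.92) and F830016B08Rik (1.16), though Gm4951 was not called without WT replicate 1 or Adam17-/- replicate 1 (adjusted p = 0.0639 and 0.0704). These 3 also had counts that were not whole in at least 2 libraries, so they share reads with other genes and are not independent either. On chromosome 11, 0 of 6 IRG genes were called higher and Irgm2 was called lower (-0.35, adjusted p = 0.0223). That call was lost with any Adam17-/- replicate left out (adjusted p = 0.0993, 0.0972 and 0.0684), with library size only (0.121) and in both fits of FPKM (0.153 and 0.160). A replicate block ended it too (adjusted p = 0.099).

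**Figure D3:**
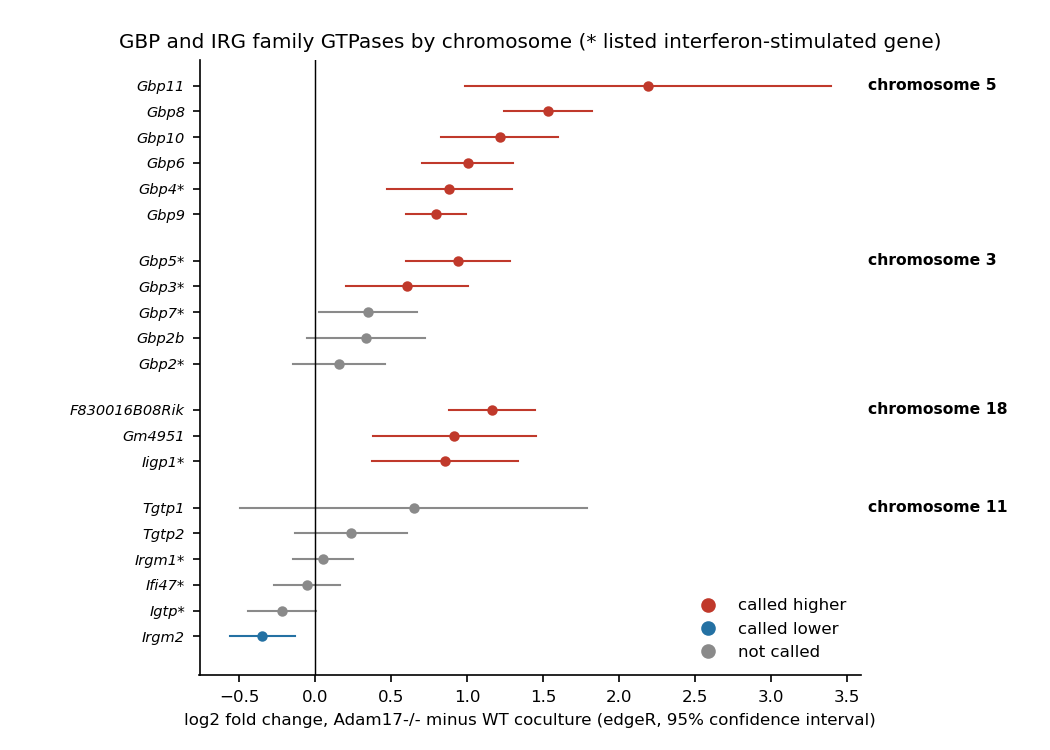
Fitted log2 fold change (Adam17-/- minus WT coculture) of 20 GBP and IRG genes, grouped by chromosome, with 95% confidence intervals as lines; an asterisk marks genes of the list. All 6 genes of chromosome 5 and all 3 of chromosome 18 are red (called higher), against 2 of 5 on chromosome 3 and 0 of 6 on chromosome 11. Gbp11 on chromosome 5 and Tgtp1 on chromosome 11 passed the count filter only with the help of the Adam17-/- libraries.

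The antiviral effectors of the IFIT, OAS and MX families and their companions form the largest group, with 19 genes listed and 18 tested. Of these, 5 were called higher, or 27.8%, and 0 lower, and the median log2 fold change was 0.12. In both fits of FPKM 8 were higher, where the share of all genes called higher also rose, from 14.9% to 23.3% and 22.8%. The median was 0.21 without WT replicate 1 and 0.21 without Adam17-/- replicate 1. The 5 were Mx2, Mx1, Ifit2, Usp18 and Oas2, and with any single Adam17-/- library left out, 1 of the 18 was called, where 8.73% to 9.96% of all genes were higher. Mx2 (Entrez 17858, chromosome 16, 97536081 to 97560901), a dynamin-like GTPase that traps virus particles, was at 5.86 and 6.28 CPM with WT cells. With Adam17-/- cells it was at 7.88, 10.7 and 9.74 CPM, above both WT libraries in each case (log2 fold change 0.63, SE 0.164, adjusted p = 0.0178). Leaving out Adam17-/- replicate 2 or 3 raised its adjusted p to 0.0614 and 0.0590. Mx1 (Entrez 17857, chromosome 16, 97447035 to 97462906) was at 15.9 and 10.9 CPM in the WT libraries and at 21.02, 18.7 and 21.1 CPM in the Adam17-/- libraries. These did not overlap, and the log2 fold change was 0.60 (SE 0.156, adjusted p = 0.0180), with an adjusted p of 0.0567 and 0.0528 without Adam17-/- replicate 1 or 3. In every library most Mx1 counts were assigned to the transcript that RefSeq lists as noncoding, 93.8% to 95.1%, as were 97.5% to 100% of the Mx2 counts. Most inbred strains carry defective Mx alleles, and the split between transcripts is an estimate.

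Ifit2 (Entrez 15958, chromosome 19, 34550550 to 34576534), which binds foreign RNA and blocks its translation, was at 5.34 and 7.79 CPM with WT cells and at 10.2, 9.80 and 9.05 CPM with Adam17-/- cells. The groups were apart, but the WT libraries differed by more than the Adam17-/- libraries did (log2 fold change 0.56, SE 0.175, adjusted p = 0.0351). The call was lost without WT replicate 1 (log2 fold change 0.31, adjusted p = 0.158), without Adam17-/- replicate 1, 2 or 3 (adjusted p = 0.111, 0.0910 and 0.0681) and with DESeq2 (adjusted p = 0.0574). Usp18 (Entrez 24110, chromosome 6, 121245906 to 121270917), which removes ISG15 from proteins and damps receptor signaling, was at 18.4 and 14.7 CPM against 26.5, 26.5 and 19.9 CPM. Adam17-/- replicate 3 came closest to the WT libraries, and the log2 fold change was 0.55 (SE 0.156, adjusted p = 0.0243). The adjusted p rose to 0.0608 without WT replicate 2 and to 0.0813 and 0.0750 without Adam17-/- replicate 1 or 2. Oas2 (Entrez 246728, chromosome 5, 120730333 to 120749886), one of the enzymes that activate RNase L, was at 331.9 and 246.3 CPM with WT cells and at 377.7, 388.5 and 364.8 CPM with Adam17-/- cells. The Adam17-/- libraries agreed closely and lay above both, with a log2 fold change of 0.38 (SE 0.119, adjusted p = 0.0355). Without WT replicate 2 the log2 fold change was 0.18. The call was lost without Adam17-/- replicate 1, 2 or 3 (adjusted p = 0.0806, 0.0837 and 0.0577) and with a replicate block (0.0595).

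The other 13 effectors tested were not called. Isg15, a ubiquitin-like protein that is among the most strongly induced genes of the pathway, was at 3.82 and 3.41 CPM with WT cells and at 3.45, 3.82 and 4.61 CPM with Adam17-/- cells. The groups overlapped (log2 fold change 0.13, 95% confidence interval -0.31 to 0.57). Ifit1 was at 6.28 and 5.79 CPM against 5.20, 5.59 and 4.77 CPM, so that it lay slightly below both WT libraries while Ifit2 lay above them (Ifit1 log2 fold change -0.22, 95% confidence interval -0.57 to 0.13). The difference between Ifit1 and Ifit2 was not tested. Rsad2, the antiviral enzyme viperin, was at 4.29 and 3.73 CPM against 5.69, 6.58 and 4.87 CPM, without overlap but short of a call (log2 fold change 0.50, SE 0.186, adjusted p = 0.0650). It was called higher with upper quartile factors (adjusted p = 0.0452), with library size only (0.0251) and in both fits of FPKM (0.0374 and 0.0330). Its neighbor Cmpk2 overlapped between groups (log2 fold change 0.05, 95% confidence interval -0.56 to 0.67). The genes Oas1a, Oas1g, Oas3, Oasl1 and Oasl2 had log2 fold changes of -0.00, 0.09, -0.13, -0.14 and 0.18. Isg20, Ifi44, Ifit3 and Ifi35 stood at 0.31, 0.10, -0.05 and -0.25. Without WT replicate 2 the log2 fold changes of Oas3 and Ifi44 were -0.21 and 0.22. That of Oasl2 was 0.21 without WT replicate 1. Oasl2 was called higher with upper quartile factors (adjusted p = 0.0428), with library size only (0.0112) and in both fits of FPKM (0.0112 and 0.0112). Isg20 was called higher in both fits of FPKM (0.0291 and 0.0285). Ifit3b, a near copy of Ifit3, had 3, 4, 6, 5 and 2 counts in WT replicates 1 and 2 and Adam17-/- replicates 1, 2 and 3, which was too few to test.

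Promoter stretches of effectors that were not called are shown to set them beside those of the GBP genes. The strand is that of the gene and capitals mark the ISRE letters, which overlap in several matches in Isg15, Oas1a and Oas1g. All lie upstream of the transcript start used for the window, and those of Ifit3 and Ifit3b, and part of that of Oas1a, lie within the span of the gene.
Isg15, chr4:156200871-156200900, minus strand: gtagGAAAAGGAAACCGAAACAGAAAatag
Ifit1, chr19:34640775-34640804, plus strand: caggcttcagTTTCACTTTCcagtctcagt
Ifit3, chr19:34583363-34583392, plus strand: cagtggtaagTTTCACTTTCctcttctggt
Ifit3b, chr19:34607759-34607788, plus strand: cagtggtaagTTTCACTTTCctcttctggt
Oas1a, chr5:120907526-120907555, minus strand: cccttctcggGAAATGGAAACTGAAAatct
Oas1g, chr5:120887614-120887643, minus strand: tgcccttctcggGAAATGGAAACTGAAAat
The stretches of Ifit3 and Ifit3b are identical in all 30 bases, and their whole windows, aligned without gaps, were identical at 75.0% of 268 bases. Ifit3 was nevertheless at 2.16 FPKM and Ifit3b at 0.114 FPKM. Their counts were not whole in any library, so the division of shared reads bears on both levels. The windows of Oas1a and Oas1g were identical at 69.5% of 298 bases.

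Sensors of nucleic acids and genes that act on RNA or DNA counted 6, of which 1 was called higher, or 16.7%, near the 14.9% of all genes, and 0 lower. Their median log2 fold change was 0.13, but 0.033 without WT replicate 1. Ddx60 (Entrez 234311, chromosome 8, 61928073 to 62037704), a helicase that has been linked to RIG-I signaling, was at 34.8 and 36.4 CPM with WT cells and at 49.1, 50.6 and 41.3 CPM with Adam17-/- cells. All 3 Adam17-/- libraries lay above both WT libraries, and the log2 fold change was 0.40 (SE 0.108, adjusted p = 0.0208). The call was lost without Adam17-/- replicate 1 or 2 (adjusted p = 0.0811 and 0.0773). Its promoter stretch, shown for the called sensor, carries the ISRE letters on the other strand from those of the GBP genes.
Ddx60, chr8:61928024-61928053, plus strand: gtgatgaatgGAAACCGAAActtaaagctt
Samhd1, the most abundant of the group, was at 365.6 and 341.5 CPM against 406.5, 396.0 and 379.5 CPM. It lay above both WT libraries in every Adam17-/- library, but was not called (log2 fold change 0.16, SE 0.0807, adjusted p = 0.166). With library size only (adjusted p = 0.0166) and in both fits of FPKM (0.0176 and 0.0175) it was called higher. Eif2ak2, the RNA-activated kinase PKR, was not called at 0.18. The MDA5 gene Ifih1, Zbp1 and Dhx58 had log2 fold changes of 0.11, -0.10 and -0.12. With WT replicate 2 left out, the log2 fold changes of Ifih1 and Eif2ak2 were 0.27 and 0.26. Eif2ak2 was called higher with library size only (adjusted p = 0.0279) and in both fits of FPKM (0.0345 and 0.0361).

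The transcription factors of the list were not called. Stat2, a subunit of ISGF3, was at 195.7 and 160.8 CPM with WT cells and at 197.7, 200.7 and 194.2 CPM with Adam17-/- cells. WT replicate 2 was low and the groups overlapped (log2 fold change 0.15, SE 0.0958, adjusted p = 0.262). Without WT replicate 1 the log2 fold change of Stat2 was 0.29. Irf9, the DNA-binding subunit of ISGF3, was at 75.5 and 66.8 CPM against 71.0, 74.7 and 70.7 CPM. Its levels were mixed between the groups, and the log2 fold change of 0.02 had a 95% confidence interval of -0.18 to 0.22; it was -0.07 without WT replicate 2. Irf7, which drives the amplifying wave of interferon genes, was at 136.7 and 115.3 CPM with WT cells and at 93.9, 109.8 and 112.4 CPM with Adam17-/- cells. Every Adam17-/- library lay below both WT libraries, by little in 2 of the 3 (log2 fold change -0.26, SE 0.108, adjusted p = 0.0941). Without WT replicate 2, the log2 fold change of Irf7 was -0.38. Irf1, which interferon-γ induces through the GAS and which itself binds GBP promoters, was at 103.7 and 98.2 CPM against 117.6, 110.5 and 113.0 CPM. All 3 Adam17-/- libraries were slightly higher, short of a call (log2 fold change 0.17, SE 0.0803, adjusted p = 0.1304). Scaling by library size only called Irf1 and Stat2 higher (adjusted p = 0.0156 and 0.0300), and the fits of FPKM did so too (adjusted p = 0.0145 to 0.0319).

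Among 10 other induced regulators, 3 were called higher and 1 lower, against 14.9% and 16.8% of all genes. The median log2 fold change was 0.04 and changed sign to -0.066 without WT replicate 1, and it was 0.18 with library size only. With Adam17-/- replicate 1, 2 or 3 left out, the higher calls numbered 0, 0 and 1, and the share of all genes called higher fell as well, to 8.73%, 9.96% and 9.74%. Herc6 (Entrez 67138, chromosome 6, 57580992 to 57665136), the ligase that joins ISG15 to proteins in mice, was at 29.7 and 37.1 CPM with WT cells and at 46.7, 47.7 and 43.5 CPM with Adam17-/- cells. The groups were apart, with a log2 fold change of 0.46 (SE 0.112, adjusted p = 0.0133), and the adjusted p was 0.0580 and 0.0570 without Adam17-/- replicate 1 or 2. Trim25 (Entrez 217069, chromosome 11, 88999403 to 89020294), a ubiquitin ligase of the RIG-I pathway, was at 220.9 and 217.5 CPM against 257.2, 271.2 and 264.9 CPM. Its spread within groups was narrow and the change small (log2 fold change 0.27, SE 0.0765, adjusted p = 0.0249). Parp9 (Entrez 80285, chromosome 16, 35938470 to 35972621), which works with the ligase DTX3L, was at 94.1 and 90.6 CPM against 109.6, 115.0 and 108.4 CPM. It too shifted little, without overlap (log2 fold change 0.27, SE 0.0799, adjusted p = 0.0316). Without Adam17-/- replicate 1, 2 or 3, the adjusted p of Trim25 was 0.0670, 0.0808 and 0.0675, and that of Parp9 was 0.0884, 0.0998 and 0.0684. With a replicate block the adjusted p of Trim25 and Parp9 was 0.205 and 0.195.

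Slfn5 (Entrez 327978, chromosome 11, 82951349 to 82964850), a member of the Schlafen family, was the only gene of the list called lower. It was at 199.9 and 209.4 CPM with WT cells and at 165.2, 172.8 and 178.9 CPM with Adam17-/- cells. Every Adam17-/- library lay below both WT libraries, and the log2 fold change was -0.25 (SE 0.0790, adjusted p = 0.0388). The call was lost with upper quartile factors (adjusted p = 0.0963), with library size only (0.346), in both fits of FPKM (0.355 and 0.353) and without Adam17-/- replicate 1, 2 or 3 (0.215, 0.144 and 0.104). A replicate block ended the call of Slfn5 too (adjusted p = 0.195). Its promoter stretch is shown because it is the lower gene, and the ISRE letters there run into a stretch of adenines. It lies upstream of the transcript start used for the window but within the span printed for the gene.
Slfn5, chr11:82951937-82951966, plus strand: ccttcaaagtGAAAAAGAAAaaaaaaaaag
Slfn2, of the same family and the most abundant gene of the list, was at 170.6 and 179.0 CPM against 167.7, 177.1 and 169.4 CPM. The groups overlapped (log2 fold change -0.03, 95% confidence interval -0.20 to 0.15), and the sign turned to 0.12 with library size only. Bst2 had the lowest log2 fold change of the list at -0.32 (adjusted p = 0.0586), and its value was -0.47 without WT replicate 2. With no filter on low counts Bst2 was called lower (adjusted p = 0.0398). Rtp4, Parp14, Trim30a and Xaf1 were not called, with log2 fold changes of -0.17, -0.01, 0.09 and 0.14. Without WT replicate 2 the log2 fold change of Trim30a was 0.27.

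**Figure D4:**
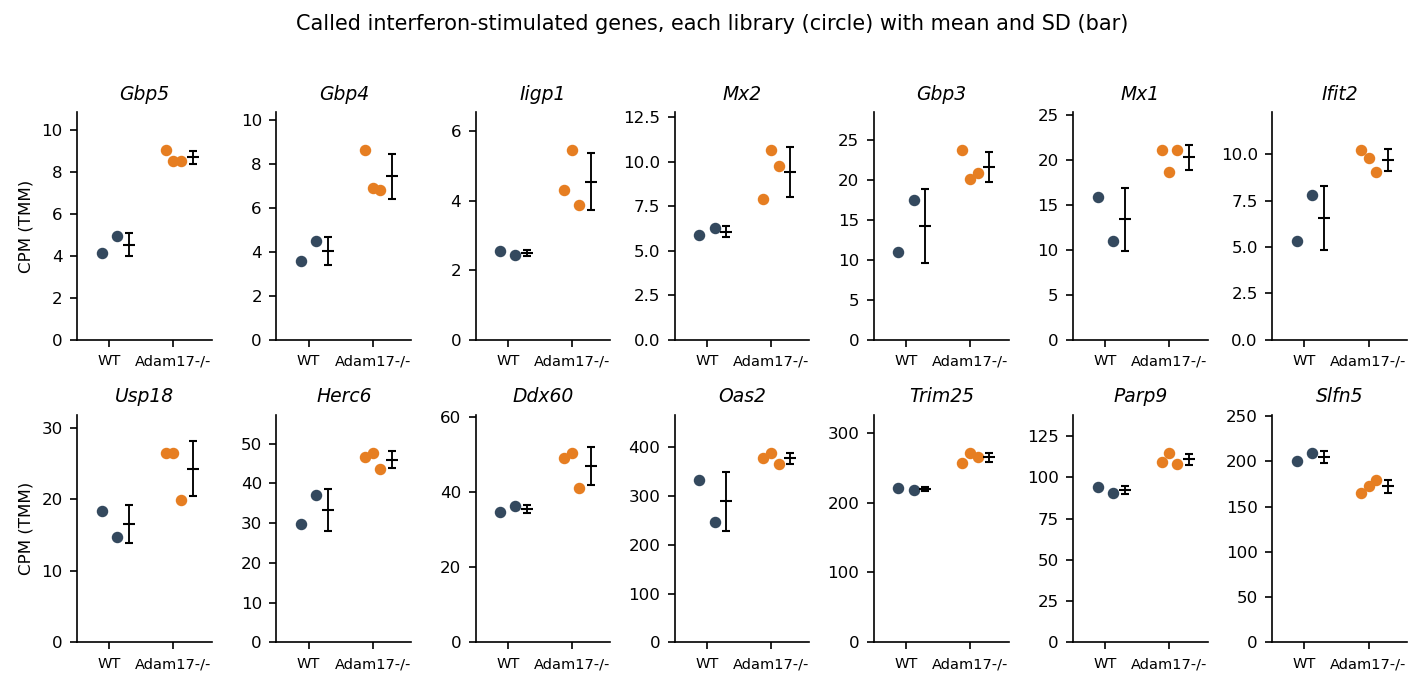
CPM of the 14 called genes in each library (circles, dark for 2 WT and orange for 3 Adam17-/- cocultures), with the mean and SD of each group as bars and every axis from 0. In 13 panels all orange circles lie above both dark circles, and in the panel of Slfn5 they lie below.

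The chemokines of the list, which attract T cells through CXCR3, were at or near 0. Cxcl9 had no listed transcript in any library. Cxcl10 had 6 and 0 counts with WT cells and 3, 7 and 1 counts with Adam17-/- cells. These counts scatter around the floor of 3 counts, and no difference was detectable at this depth.

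The libraries of a group did not shift evenly. The median deviation of the 47 genes from the mean of the WT libraries was 0.08, 0.13 and 0.16 on the log2 scale in Adam17-/- replicates 1, 2 and 3, against 0.03 and -0.03 in WT replicates 1 and 2. For the GBP and IRG group it was 0.44, 0.24 and 0.43, against -0.12 and 0.12. The WT libraries differed from each other by more than 0.5 on the log2 scale in 5 genes, Ifit2, Mx1, Cmpk2, Gbp3 and Gbp7, or 10.6%, against 12.9% of all genes, and these include 3 of the genes called higher.

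Genes that make, receive and transmit the interferon signal were read from lists outside the 50. Of 21 interferon genes, 2 had any count and 0 could be tested. Ifnb1, the interferon-β gene, had 0 counts in both WT libraries and 1 count in each Adam17-/- library, and Ifnk had 1 count in Adam17-/- replicate 1. The interferon-α genes and Ifng had no listed transcript. Interferon made in the 4T1 compartment was not measured.

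Of 6 interferon receptor subunits, 1 was called higher and 2 lower, or 16.7% and 33.3%, against 14.9% and 16.8% of all genes. The share of all genes called lower was itself 8.56% with library size only and 22.8% without WT replicate 2. The lower count of the subunits was 0 with library size only, with a replicate block and without Adam17-/- replicate 1, 1 in the fits of FPKM and without Adam17-/- replicate 2, 3 without WT replicate 1 and 4 without WT replicate 2. Ifnar2 was at 292.1 and 271.5 CPM with WT cells and at 211.6, 228.9 and 214.5 CPM with Adam17-/- cells. It was lower in all 3 (log2 fold change -0.37, SE 0.0807, adjusted p = 0.00867), a call lost without Adam17-/- replicate 1 (adjusted p = 0.0641), with library size only (0.0503) and with a replicate block (0.0930). Its partner Ifnar1 was not called (log2 fold change -0.18, adjusted p = 0.107). Ifngr1, the binding subunit for interferon-γ, was at 266.8 and 269.6 CPM against 216.2, 207.2 and 222.8 CPM. It was called lower (-0.32, SE 0.0768, adjusted p = 0.0135), but not without Adam17-/- replicate 1 or 2 (adjusted p = 0.0814 and 0.0824), with library size only (0.117), in the fits of FPKM (0.109 and 0.106) or with a replicate block (0.102). Ifnlr1, a subunit of the interferon-λ receptor, was at 1.05 and 0.812 CPM against 3.17, 3.22 and 3.34 CPM. It was higher in all 3 and in all 13 alternative fits, from a low level of 0.602 FPKM (log2 fold change 1.79, SE 0.248, adjusted p = 0.00119).

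Of 4 JAK-STAT genes, 1 was called higher and 1 lower, too few to set against the shares of all genes. Jak2, a kinase of the interferon-γ receptor, was at 71.4 and 89.7 CPM against 109.6, 105.5 and 105.5 CPM. It was called higher (0.41, SE 0.104, adjusted p = 0.0166), though not without Adam17-/- replicate 1, 2 or 3 (adjusted p = 0.0735, 0.0564 and 0.0551) or with a replicate block (0.0578). Jak1 was called lower at -0.27 (SE 0.0804, adjusted p = 0.0295), a call lost with any Adam17-/- replicate left out (adjusted p = 0.161, 0.123 and 0.102). It was also lost under upper quartile factors (0.0701), library size only (0.266), both fits of FPKM (0.277 and 0.275) and a replicate block (0.179).

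Upstream of interferon, 0 of 17 sensors and adaptors were called higher and 3 lower, or 17.6%, near the 16.8% of all genes called lower. These counts moved with the settings: library size only gave 3 higher and 2 lower, upper quartile factors 2 and 2, and leaving out WT replicate 2 gave 4 and 5, with Tlr3, Traf6 and Ticam2 higher under library size only (adjusted p = 0.0151, 0.0137 and 0.0489). Tlr9, a receptor for DNA, was at 30.9 and 29.1 CPM against 16.97, 22.4 and 20.8 CPM (log2 fold change -0.58, SE 0.124, adjusted p = 0.00757) and stayed called in all 13 alternatives. Ticam1, the adaptor of TLR3, was called at -0.59 (adjusted p = 0.0149), but not without WT replicate 1 (0.0531) or Adam17-/- replicate 2 (0.0625) or in the fits of FPKM (0.0579 and 0.0615). Tlr7 was called at -0.35 (adjusted p = 0.0263), and 8 alternatives beside the replicate block ended that call, at adjusted p of 0.0504 to 0.204. Of 8 kinases and factors that regulate interferon genes, 0 were called higher and 3 lower, Rela (-0.41), Irf5 (-0.31) and Nfkb1 (-0.28), a count to be set against 16.8% of all genes. With library size only, where 8.56% of all genes were lower, none of the 8 was called, at adjusted p of 0.0623, 0.138 and 0.242 for the 3, and without Adam17-/- replicate 1, 2 or 3 there were 0, 1 and 0 lower calls, at 7.42%, 9.38% and 9.97% of all genes. Of 14 negative regulators, 1 was called higher and 3 lower, or 21.4% lower, near the 16.8% of all genes. The counts were 1 and 6 without WT replicate 2, where 22.8% of all genes were lower, and 1 and 1 with library size only and in the fits of FPKM. Trex1, the exonuclease that removes DNA from the cytosol, was at 39.0 and 33.3 CPM with WT cells and at 24.7, 22.3 and 27.5 CPM with Adam17-/- cells. It was lower in all 3 and stayed called in all 13 alternative fits (log2 fold change -0.54, SE 0.117, adjusted p = 0.00843). Irf2bp1 (-0.38) and Ptpn6 (-0.29) were called lower and Ptpn2 (0.29) higher, and leaving out Adam17-/- replicate 1 ended these 3 calls (adjusted p = 0.1296, 0.136 and 0.144).

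**Figure D5:**
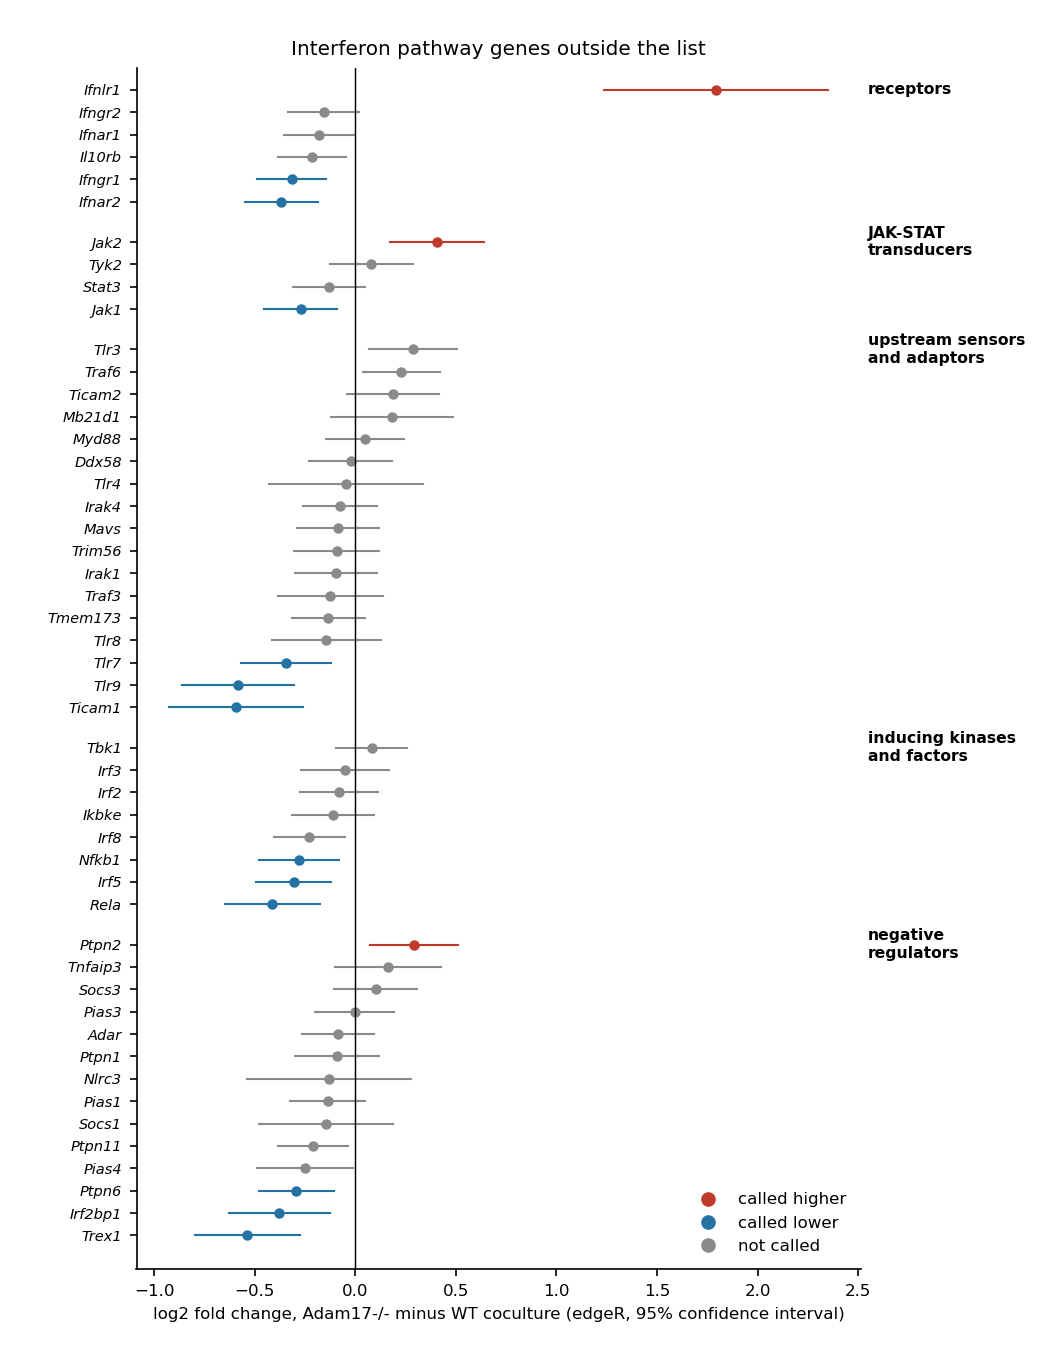
Fitted log2 fold change (Adam17-/- minus WT coculture) of the 49 tested genes that make, receive, transmit or restrain the interferon signal, with 95% confidence intervals as lines. Ifnlr1 stands apart at 1.79, and 12 genes, or 24.5%, are blue (called lower) and 3, or 6.12%, red (called higher), against 16.8% and 14.9% of all genes. With library size only, which moved all genes upward (8.56% lower and 24.0% higher), 3 of the 49 were lower and 6 higher, or 6.12% and 12.2%. Without Adam17-/- replicate 1, 2 or 3, 6.12%, 8.16% and 10.2% were lower, near the 7.42%, 9.38% and 9.97% of all genes. In each of these fits 2.04% were higher, against 8.73%, 9.96% and 9.74%.

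Further genes of the interferon response were listed as well, 58 by name. They were members of the same families and others such as Uba7, Sp100, Ly6e, Nlrc5 and Lgals3bp. Of 50 tested, 21 were called higher, or 42%, among them Gbp11, and 3 lower, or 6%, against 14.9% and 16.8% of all genes, and their median log2 fold change was 0.31. Of the 50, 46 passed the count filter on the WT libraries alone, as did 20 of the 21 called higher. Ifit1bl2, Oas1h, Gbp11 and Tgtp1 did not. Leaving out an Adam17-/- library left 14 to 18 higher, where 8.73% to 9.96% of all genes were higher. Beside the GBP genes above, Slfn4, a Schlafen gene of myeloid cells, was at 97.0 and 84.3 CPM against 150.4, 167.8 and 147.5 CPM. It lay above both WT libraries in all 3 and stayed called in all 13 alternatives (log2 fold change 0.78, SE 0.0981, adjusted p = 0.000839). Nlrc5, the activator of MHC class I genes, was at 119.2 and 110.9 CPM against 168.2, 179.7 and 141.4 CPM. It was higher in all 3 and in all 13 alternatives (0.50, SE 0.109, adjusted p = 0.00833). In the other direction, Lgals3bp was at 686.8 and 495.3 CPM against 308.8, 372.1 and 390.4 CPM. It was lower in all 3 and in all 13 alternatives (-0.73, SE 0.142, adjusted p = 0.00535).

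Markers of cell types moved with the groups, where 14.9% of all genes were called higher and 16.8% lower. All 8 macrophage markers were detected, and their summed level was 27660 to 28420 CPM with WT cells and 17940 to 19910 CPM with Adam17-/- cells, with 6 of 8 called lower. Of 10 neutrophil markers 7 were called higher, beside Camp, which had 7 and 2 counts with WT cells and passed the count filter only through the Adam17-/- libraries, and their sum was 332.3 to 404.8 CPM against 1151 to 1330 CPM. The 6 dendritic cell markers summed to 8.71 to 11.7 CPM against 13.1 to 18.1 CPM, and Clec9a was called higher. Of 6 megakaryocyte markers 5 were called higher and Pf4 lower. The 8 T and NK cell markers summed to less than 1 CPM in every library (0.217 to 0.471 CPM against 0.547 to 0.688 CPM), and Cd3g and Gzma had no listed transcript. The 6 B cell markers summed to 0.433 to 1.57 CPM against 1.204 to 2.17 CPM. Of the plasmacytoid dendritic cell markers, Siglech had 0 to 2 counts and Klk1 0 to 2 counts in a library, and nearly all of the sum was Tcf4. Of 7 mammary epithelial markers, Epcam had 1 count in WT replicate 2 and 0 in the others, and the sum of 11.5 to 13.2 CPM against 11.9 to 14.2 CPM was mostly Cdh1. The part of the macrophage, neutrophil, dendritic cell and megakaryocyte markers in the differences of the interferon-stimulated genes was not tested. In these bulk samples, fewer cells of a type and less RNA per cell cannot be told apart.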

How the data were processed

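RNA of 5 BMDM samples was sequenced as poly-A libraries on a BGISEQ-500. The authors aligned reads to GRCm38 (mm10 in the labels) with HISAT, and the labels name Bowtie, Bowtie2, RSEM and DESeq2 without versions. They deposited, per transcript and library, an expected count, not normalized, which divides reads among matching transcripts, and an FPKM value, scaled to transcript length and library size. The deposited tables hold only transcripts with an FPKM of 0.01 or more, and the rest were taken as 0 counts. Whether counting used strand is not given in the sources used here.

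Expected counts were summed per Entrez gene, rounded (which moved no count by more than 0.5) and tested with edgeR 4.0.16 (TMM, filterByExpr, glmQLFit, glmQLFTest) in R 4.3.3 over all genes, without covariates. The TMM factors were 0.920 and 0.963 for WT and 1.04 to 1.05 for Adam17-/- libraries. CPM are TMM-scaled, and log2 values per library used a prior count of 2. For 23 of the listed genes, the counts were not whole in at least 1 library, and their levels are uncertain where reads are shared. The quasi-likelihood test gives no SE. It was taken as the absolute log2 fold change divided by the square root of the F statistic. Intervals used this SE and a t quantile, and cover the spread between samples and counting error.

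The 50 genes, the other lists and the tests were chosen with earlier results of these data known. Values in every library are given for the transcription factors and chemokines, and in each other group of the 50 for up to 4 called genes of the largest change, the most abundant gene and any gene called against the majority. In the other lists, only some called genes are given, with values in every library or by their log2 fold change alone. The rest enter only the counts. Further called genes, genes short of a call and neighbors were added after their values were seen. An item of the pathway is not reported here. The 13 alternative fits were upper quartile factors, scaling by library size alone, DESeq2 1.42.0, limma 3.58.1 on FPKM with a pseudocount of 0.1 or 1 (log2), no filter, at least 10 counts in every sample, a replicate block, and each replicate left out, and a limit of 1 on the log2 fold change was tried as well. The edgeR, DESeq2 and limma fits were tested on simulated counts with 200 genes changed. Of these, edgeR found 84 with a log2 fold change of 1 and 96 with one of 2, in either direction, and made 16 false calls. No change under 1 was simulated, so recovery at the size seen in the listed genes was not tested. There limma was run on CPM and not on FPKM. Symbols, coordinates and promoter windows came from RefSeq on GRCm38. Of 17058 genes, 17015 had a symbol. Python 3.11.15, pandas 2.3.3, scipy 1.17.1 and matplotlib 3.10.9 were used.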

Additional observations from a re-analysis of the deposited data

How the results depend on the processing

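Of the listed genes, 13 were called higher and 1 lower in the analysis reported, with a median log2 fold change of 0.13. The higher count was 20 with library size only, 21 and 20 with limma on log2(FPKM + 0.1) and log2(FPKM + 1), and 0 with a limit of 1 on the log2 fold change, and with a replicate left out it ran from 4 to 16. The lower count was 0 with upper quartile factors, library size only, log2(FPKM + 0.1), log2(FPKM + 1) and the limit on the fold change, 2 with no filter on low counts, and 0 to 5 with a replicate left out. The median was 0.19, 0.28, 0.27 and 0.24 with upper quartile factors, library size only, log2(FPKM + 0.1) and log2(FPKM + 1), while the median of all genes moved from 0.01 to 0.07, 0.16, 0.15 and 0.11. Slfn2 turned to 0.029, 0.12, 0.12 and 0.12 under those 4 settings, and its leave-one-out values ran from -0.067 to 0.0071. Irf9 turned to -0.070 without WT replicate 2. In all, the sign of 16 of the 47 genes turned in at least 1 alternative, and none of the 16 was called in the analysis reported. Over the 21 genes that were called, are transcription factors or are the most abundant of their group, 210 of 273 values kept direction and side of the threshold, 41 lost a call, 15 gained it and 7 turned. With a replicate block the counts were 10 higher and 0 lower. Deviations of same-numbered libraries had correlations of -0.124 and -0.050. As 2 WT libraries deviate as mirror images, these cannot settle whether replicates were paired. The third Adam17-/- library had no partner, and the labels do not say whether equal numbers mark a pair. Leaving out a WT replicate leaves 1 WT library, which is assumed to vary like the others. The causes of these shifts were not tested. Genes near 3 counts could not be compared at this depth.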
